A study of Mus musculus with 16 samples.

Results

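The cytosolic ribosomal protein genes encode the proteins of the cytoplasmic ribosome, and their mRNAs were measured in the liver of 16 mice. Genes were taken by symbol (Rpl or Rps followed by a number and at most 1 further letter a, x or l, together with Rplp0, Rplp1, Rplp2 and Rpsa) and kept when their mean over the 16 mice was at least 0.1 FPKM (fragments per kilobase of transcript, scaled to library size, hence a level per transcript length). Of the 17003 genes in the table, 80 carried such a symbol and 76 passed the minimum, out of 12770 genes that passed it in all. These 76 comprised 46 genes of the large subunit and 30 of the small subunit. The choice used symbols and mean levels, not the difference between genotypes.

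The study asked whether loss of the hepatocyte protein FGL1, a secreted fibrinogen-like factor, alters the liver. All mice carried floxed Fgl1. The 8 Fgl1 LKO mice also expressed Cre recombinase under the albumin promoter, which deletes the gene in hepatocytes but not in the other cells of the liver, and the 8 Fgl1 LWT mice were littermates without Cre. All were males of 8 weeks, fed normal chow and labelled as fed, with 1 polyA RNA library per mouse. Fgl1 itself lay between 157.8 and 1331 FPKM in Fgl1 LWT and between 13.2 and 89.99 FPKM in Fgl1 LKO livers, so that each library matched its label. Whole liver was sequenced, in which fewer cells of a type and less RNA per cell cannot be told apart. The summed level of 5 hepatocyte markers was 59876 to 95892 FPKM in Fgl1 LWT and 55017 to 77860 FPKM in Fgl1 LKO livers, while that of 5 Kupffer cell (liver macrophage) markers was 51.7 to 108.1 and 63.3 to 137.5 FPKM. The mouse numbers in the labels fall into 4 runs, and the first run (36 to 38) holds 3 Fgl1 LWT mice only. The labels do not call these runs batches. How many reads each library gave is not known.

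Each ribosome contains 1 copy of nearly every ribosomal protein, so cells make these proteins in matched amounts. Most of their mRNAs begin with a C followed by a stretch of pyrimidines, the terminal oligopyrimidine motif, through which mTOR signalling and the protein LARP1 control their translation and stability. Hepatocytes carry dense rough endoplasmic reticulum and export most plasma proteins, and ribosomal protein mRNAs are known to be abundant in this tissue.

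The motif could be read directly in the reference. Of the 76 genes, 56 had a promoter sequence in the RefSeq table (GRCm38.p6, 250 bases before to 50 bases after the annotated start). In 12 of the 56 (21.4%), the annotated first base was a C followed by at least 4 pyrimidines, against 2.88% of the 10258 measured genes in the same table. The windows of 6 genes, with runs of different length, are shown to let the motif be seen, each running from 10 bases before the start to 20 bases from it, with the pyrimidine run at the start in capitals.
Rpl15: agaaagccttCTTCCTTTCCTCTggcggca
Rplp2: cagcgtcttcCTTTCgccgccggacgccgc
Rps6: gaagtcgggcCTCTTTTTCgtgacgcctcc
Rps15a: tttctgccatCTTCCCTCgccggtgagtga
Rps18: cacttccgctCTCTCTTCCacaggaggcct
Rps21: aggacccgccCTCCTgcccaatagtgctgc
The run of Rpl15 was 13 bases long, and those of Rps6 and Rps18 were 9 bases. In Rplp2 and Rps21 it ended after 5 bases. The windows lie at chr14:18270967-18270996 (minus strand) for Rpl15, chr7:141447641-141447670 (plus) for Rplp2, chr4:86857348-86857377 (minus) for Rps6, chr7:118116128-118116157 (minus) for Rps15a, chr17:33955646-33955675 (minus) for Rps18 and chr2:180257369-180257398 (plus) for Rps21.

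With the start allowed to lie up to 30 bases either side of the annotated one, 31 of the 56 promoters (55.4%) held a C followed by at least 7 pyrimidines on the strand of the gene, against 21.95% of measured genes. Of motifs searched on both strands over the whole window, the core CCGGAAG, bound by ETS family factors such as GABP, was present in 24 of 56 promoters (42.9%) and in 19.5% of measured genes. The GC box GGGCGG was present in 62.5% and 66.3%, the E-box CACGTG in 10.7% and 11.5%, the TATA letters TATAAA in 10.7% and 9.52%, and the YY1 core AAGATGGC in 7.14% and 5.06%. None of these motifs contains another, and a match describes letters, not binding.

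In liver, the 76 mRNAs were abundant and lay within a narrow band. Their mean over the 16 mice had a median of 356.8 FPKM, against 4.93 FPKM over all 12770 genes, and 65 of the 76 were among the 500 genes of highest mean. The median was 354.7 FPKM in the large subunit and 383.2 FPKM in the small subunit. Between 100 and 700 FPKM lay 66 of the genes, and 3 lay below 100 FPKM. In every one of the 76, the highest mouse was less than 2 times the lowest.

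**Figure D1:**
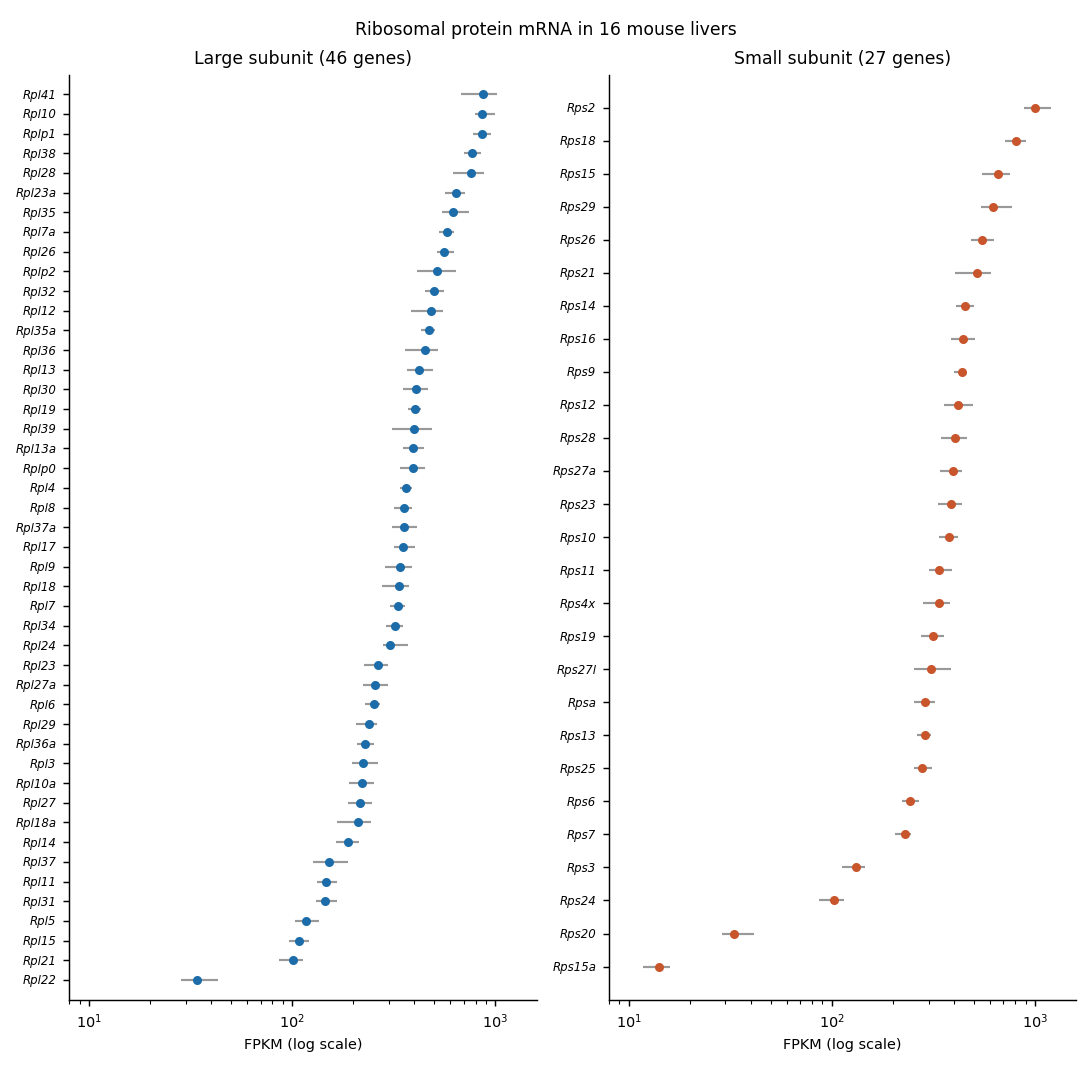
Mean FPKM over 16 mice (points, log axis) of 46 large subunit and 27 small subunit genes, with bars from the lowest to the highest mouse. The other 3 small subunit genes are not drawn. Most genes sit between 100 and 700 FPKM with short bars, and Rps15a, Rps20 and Rpl22 stand below the rest.

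The highest was Rps2, a small subunit protein near the mRNA entry path, with 978 ± 74.6 FPKM (SD, n = 8) in Fgl1 LWT and 1026 ± 111 FPKM (SD, n = 8) in the Fgl1 LKO group. It lies on chromosome 17 from 24937080 to 24940904 (GRCm39, plus strand). Next came Rpl41 (mean 866 FPKM), the smallest ribosomal protein, Rpl10 (864 FPKM), which joins the large subunit late in its maturation, Rplp1 (856 FPKM), of the stalk that recruits elongation factors, and Rps18 (805 FPKM), of the small subunit head. The levels of the first of these overlapped those of its neighbour between mice, 882 to 1198 FPKM for Rps2 and 681 to 1019 FPKM for Rpl41, and Rpl41, Rpl10, Rplp1 and Rps18 overlapped likewise. These 5 genes gave 15.0% of the summed level of the 76.

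The lowest was Rps15a, with 14.3 ± 1.5 FPKM (SD, n = 8) in Fgl1 LWT and 13.9 ± 0.85 FPKM (SD, n = 8) in the Fgl1 LKO group, followed by Rps20 (mean 32.9 FPKM) and Rpl22 (34.2 FPKM). Rpl21 (100.9 FPKM) and Rps24 (102.7 FPKM) came next. Between mice, the levels of Rps20 overlapped those of Rpl22, and the levels of Rpl21 those of Rps24. Rps15a ranged from 11.8 to 16.1 FPKM over all mice, which overlapped no other gene of the group. Because the proteins are used in nearly equal numbers, the reference transcripts behind these levels were looked up. The canonical transcripts of Rps15a and Rps20 in GENCODE vM39 have 5182 and 3710 bases, against a median of 1099.5 bases (382 to 6111) over the 76 genes, while that of Rpl22 has 634 bases. Across the 76 genes, which are not independent replicates, level and canonical transcript length had a Spearman rho of -0.46. The lengths used in the deposited FPKM are not given in the sources used here, so that a long transcript model and a low mRNA level cannot be told apart for Rps15a and Rps20.

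Ribosomal protein genes have many processed copies in the genome, with which short reads can be shared. Over the canonical transcripts, a median of 36.2% of all 50-base stretches of these genes, and 12.3% of 150-base stretches, occurred in the transcript of another annotated gene. In 25 genes over 50% were shared. The share was 91.1% in Rpl9 and 86.7% in Rps18, against 2.96% in Rps3. The median level was 341.0 FPKM in the 25 genes with over 50% shared and 357.0 FPKM in the rest.

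In Rps27, 62.4% of the 50-base stretches and 52.4% of the 150-base stretches of the canonical transcript occurred in other genes. The symbol Rps27 was listed at 0 FPKM in all 16 mice, which kept it out of the 76. Rps27rt, whose symbol the rule does not take, was listed at 895 ± 66.9 FPKM (SD, n = 8) in Fgl1 LWT and 844 ± 69.2 FPKM (SD, n = 8) in the Fgl1 LKO group, at the level of Rpl10. In GRCm39, the coding part of Rps27 spans chr3:90120035-90120922 on the minus strand in 4 exons, and that of Rps27rt lies at chr9:114811524-114811775 on the minus strand in 1 exon. Both are 252 bases long without the stop codon and differ at 0 bases. The shared coding sequence is shown because no read within it can tell the genes apart, with the 2 bases either side of each exon junction of Rps27 in capitals.
Rps27 and Rps27rt: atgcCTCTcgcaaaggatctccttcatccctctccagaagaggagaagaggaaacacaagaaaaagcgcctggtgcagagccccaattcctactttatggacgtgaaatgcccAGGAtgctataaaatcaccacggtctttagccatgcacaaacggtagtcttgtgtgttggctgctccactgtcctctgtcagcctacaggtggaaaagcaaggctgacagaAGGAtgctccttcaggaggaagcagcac
The value listed under Rps27rt can therefore hold reads of Rps27. Why Rps27 was listed at 0 FPKM was not tested. The related Rps27l, a paralog known as a p53 target, differs from Rps27 at 60 of 252 coding bases (76.2% identity) and was measured apart, at 322.7 ± 39.8 FPKM in Fgl1 LWT and 296.0 ± 26.7 FPKM in Fgl1 LKO mice (SD, n = 8 each).

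Of the other paralogs fixed for comparison, Rpl3l and Rpl39l were low in liver. Rpl3l, the striated muscle form of Rpl3, had a mean of 0.038 FPKM, against 223.4 FPKM for Rpl3. Rpl39l had 0.028 FPKM, against 399.3 FPKM for Rpl39. Both were under the minimum of 0.1 FPKM. Rpl32l, not among the fixed pairs, was listed at 0.011 FPKM. Its annotated transcript has 1 exon and 0 coding bases, and 100% of its 50-base stretches occur in other genes. Its reads can therefore not be told from those of other genes. Ribosomal proteins whose symbols the rule does not take were at levels like those of the 76. Fau, a fusion of a ubiquitin-like protein with a small subunit protein, had a mean of 482.9 FPKM, Rps3a1 375.2 FPKM and Rpl36al 383.2 FPKM. The paralog Rpl22l1 had 65.1 FPKM and Rpl7l1 24.4 FPKM.

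The summed level of the 76 genes did not separate the genotypes. In the Fgl1 LWT mice it was lowest at 27628 FPKM, with a median of 29222 and a highest value of 31384 FPKM. In the Fgl1 LKO mice the lowest, median and highest were 27930, 29236 and 30907 FPKM. The means were 29223 ± 1260 (SD, n = 8) and 29311 ± 1111 FPKM (SD, n = 8), a difference smaller than the spread within either group, and the highest mouse was 1.14 times the lowest. The 76 genes took 3.66% to 4.54% of the summed FPKM of all genes. Both extremes of this share were Fgl1 LWT mice, replicate 8 (3.66%) and replicate 4 (4.54%). In summed level, the highest and lowest mice were Fgl1 LWT replicates 4 and 1. In replicate 4, 75 of the 76 genes lay above their own mean, and in replicate 1, 12 did. The 3 mice of the first run, all Fgl1 LWT, had 28051 ± 684 FPKM (SD, n = 3). Within the other runs the means of Fgl1 LWT and Fgl1 LKO were 31384 FPKM (1 mouse) and 29534 FPKM (3 mice) in the second, 29788 (2 mice) and 28986 FPKM (3 mice) in the third, and 29337 and 29463 FPKM (2 mice each) in the fourth.

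**Figure D2:**
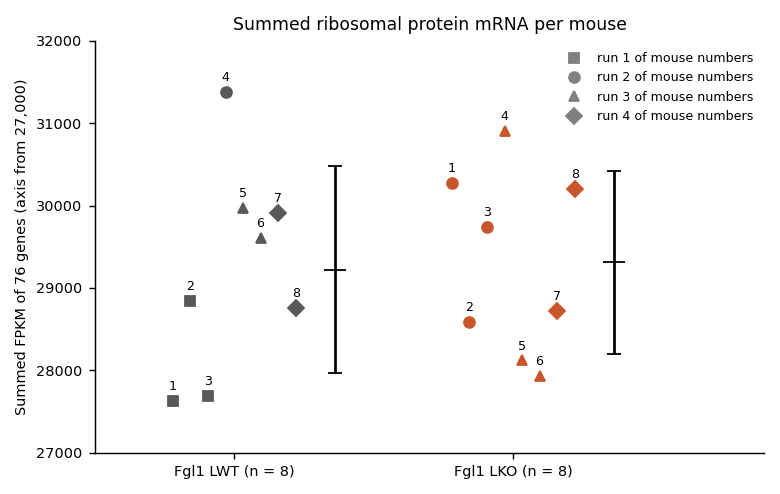
Summed FPKM of the 76 ribosomal protein genes in each mouse (numbers are replicates, shapes the run of mouse numbers, bars the mean ± SD of 8 mice, and the axis does not start at 0). The groups overlap over nearly their whole range, and the 3 squares, from the first run, lie between 27628 and 28840 FPKM.

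The balance between the subunits also overlapped. The summed large subunit level was 1.501 ± 0.032 times the small subunit level in Fgl1 LWT and 1.486 ± 0.016 times in Fgl1 LKO mice (SD, n = 8 each). The 2 highest ratios, 1.55 in both, belonged to Fgl1 LWT replicates 7 and 8, the Fgl1 LWT mice of the fourth run.

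Gene by gene, no ribosomal protein gene passed the test between genotypes. With limma on log2(FPKM + 1) and Benjamini-Hochberg adjustment over all 12770 genes, 0 of 76 had an adjusted p under 0.05, as did 0 of all genes (0%). The smallest limma adjusted p over all genes was 0.0725. The deleted gene Fgl1 was thus not called either, although its groups did not overlap. A count of 0 in this test therefore does not show that no gene differed. Unadjusted, 2 of 76 were under 0.05, 1 in each direction, against 895 of 12770 genes (7.01%), of which 4.64% were higher and 2.36% lower in Fgl1 LKO. The exact permutation test ran over all splits of the mice into groups of 8 and uses each gene's own spread. It gave an unadjusted p under 0.05 for 6 of 76, against 7.06% of all genes. The exact rank-sum test gave such a p for 7, against 6.58% of all genes, with 0 after adjustment. Its smallest possible p of 0.000155 can pass adjustment over 12770 genes only if many genes come near it. The 0 after adjustment was therefore nearly fixed in advance. In none of the 76 did the groups fail to overlap, which happened for 0.0157% of all genes. The median log2 difference of the 76 (Fgl1 LKO minus Fgl1 LWT) was 0.0041, against 0.014 over all genes, with 39 higher and 37 lower, while 55.8% of all genes were higher. The number higher was 31 of 76 with median-ratio scaling, 28 without the first run of mouse numbers and 23 with the run as a term in the fit, so that the even split depended on these settings. The median was 0.0041 in the large subunit and 0.0088 in the small subunit.

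The estimates were also tightly bounded. All 76 log2 differences lay between -0.15 and 0.15, which in linear terms is a change of -9.87% to 10.6%. The 95% intervals had a median half-width of 0.13 and reached from -0.32 (Rpl39) to 0.30 (Rpl41), before correction for the number of genes.

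**Figure D3:**
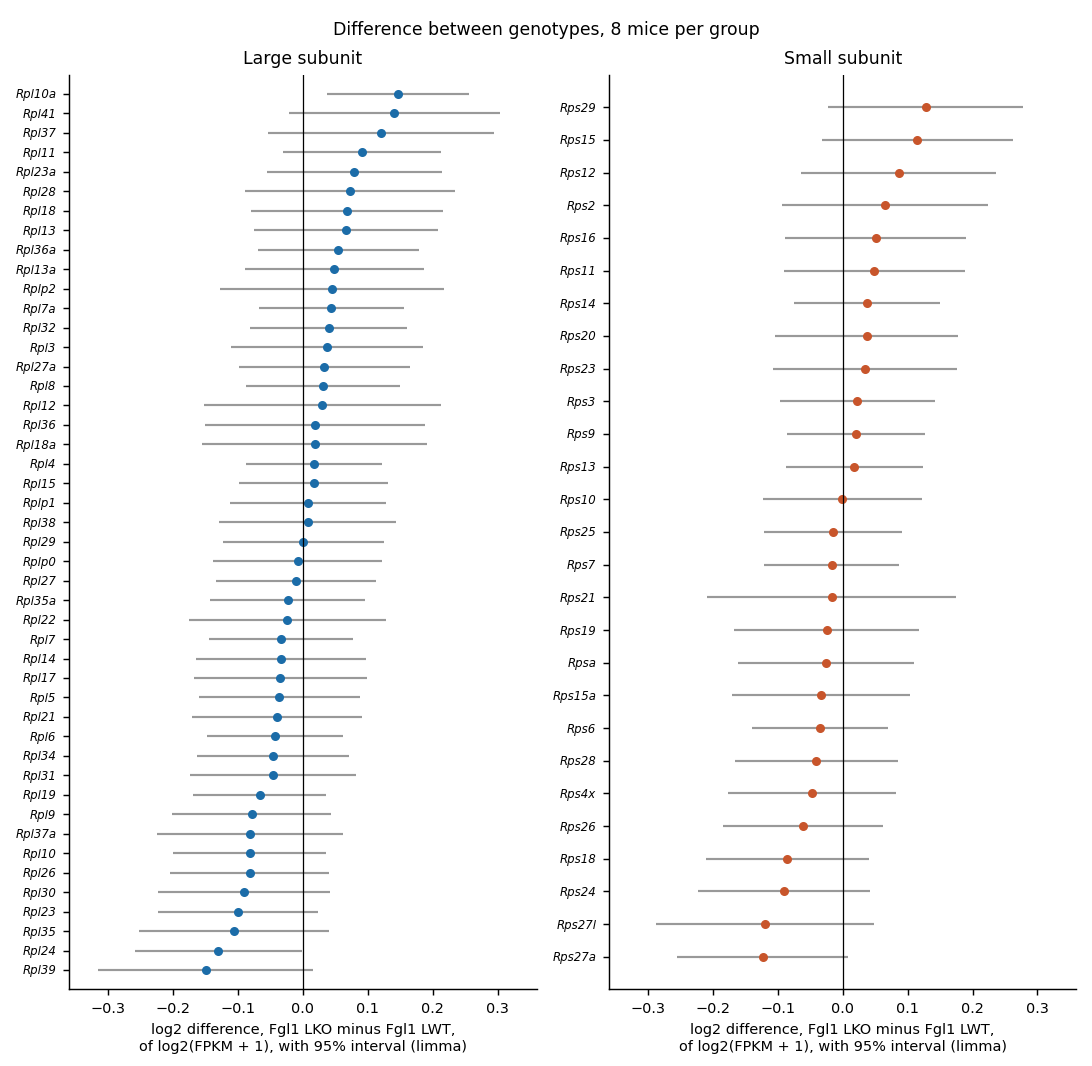
Log2 difference between Fgl1 LKO and Fgl1 LWT mice (points, on the log2(FPKM + 1) scale) with 95% limma intervals for 46 large subunit and 27 small subunit genes (the other 3 are not drawn), ordered by size within each subunit. Points lie between -0.15 and 0.15, and the intervals of Rpl10a and Rpl24 are the 2 that leave out 0, without correction for the number of genes.

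The largest positive difference was that of Rpl10a, a large subunit protein near the tRNA exit site, on chromosome 17 from 28547144 to 28550008 (GRCm39, plus strand). Its lowest, median and highest levels were 190.8, 211.5 and 228.2 FPKM in Fgl1 LWT and 217.9, 229.7 and 253.8 FPKM in Fgl1 LKO mice. All 8 Fgl1 LKO mice lay above the Fgl1 LWT median, and the ranges overlapped between 217.9 and 228.2 FPKM. The log2 difference was 0.15 ± 0.052 (SE), 10.6% higher with a 95% interval of 2.55% to 19.4%, with a limma p of 0.0120 (adjusted 0.696) and an exact permutation p of 0.0017. Of the 50-base stretches of Rpl10a, 59.5% occur in transcripts of other genes.

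Rpl41 followed, with a median of 833 FPKM (681 to 949) in Fgl1 LWT and 908 FPKM (793 to 1019) in Fgl1 LKO mice and a log2 difference of 0.14 ± 0.077 (SE, limma adjusted p = 0.707). Rps29, a zinc-binding small subunit protein, had medians of 579.7 (541 to 698) and 638.9 FPKM (565 to 769) and a difference of 0.13 ± 0.071 (SE, adjusted p = 0.708). In both genes 7 of 8 Fgl1 LKO mice lay above the Fgl1 LWT median, and the groups overlapped over most of their range.

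In the other direction, Rpl39, which lines the exit tunnel for the nascent chain, had a median of 420.8 FPKM (352 to 488) in Fgl1 LWT and 386.4 FPKM (309 to 432) in Fgl1 LKO mice. Its log2 difference was -0.15 ± 0.079 (SE, limma adjusted p = 0.701), with 7 of 8 Fgl1 LKO values under the median of Fgl1 LWT. Rpl24, of the subunit interface, had lowest, median and highest levels of 290.5, 307.7 and 373.4 FPKM in Fgl1 LWT and 278.9, 284.2 and 329.2 FPKM in Fgl1 LKO mice. Its difference was -0.13 ± 0.061 (SE), with a limma p of 0.0470 (adjusted 0.696) and an exact permutation p of 0.0207. Here 7 of 8 Fgl1 LKO values were under the median of Fgl1 LWT, and the eighth, replicate 1, was above it. Of the 50-base stretches of Rpl24, 81.7% occur in transcripts of other genes.

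Rps27a, which is made as a fusion with ubiquitin, had a median of 413.1 FPKM (359 to 440) in Fgl1 LWT and 378.6 FPKM (342 to 409) in Fgl1 LKO mice. Each of the 8 Fgl1 LKO values was under the median of Fgl1 LWT, with a difference of -0.12 ± 0.063 (SE, limma adjusted p = 0.700) and an exact permutation p of 0.0364. The exact permutation p was also under 0.05 for Rpl10 (0.0312, log2 difference -0.082) and Rpl19 (0.0361, -0.067).

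**Figure D4:**
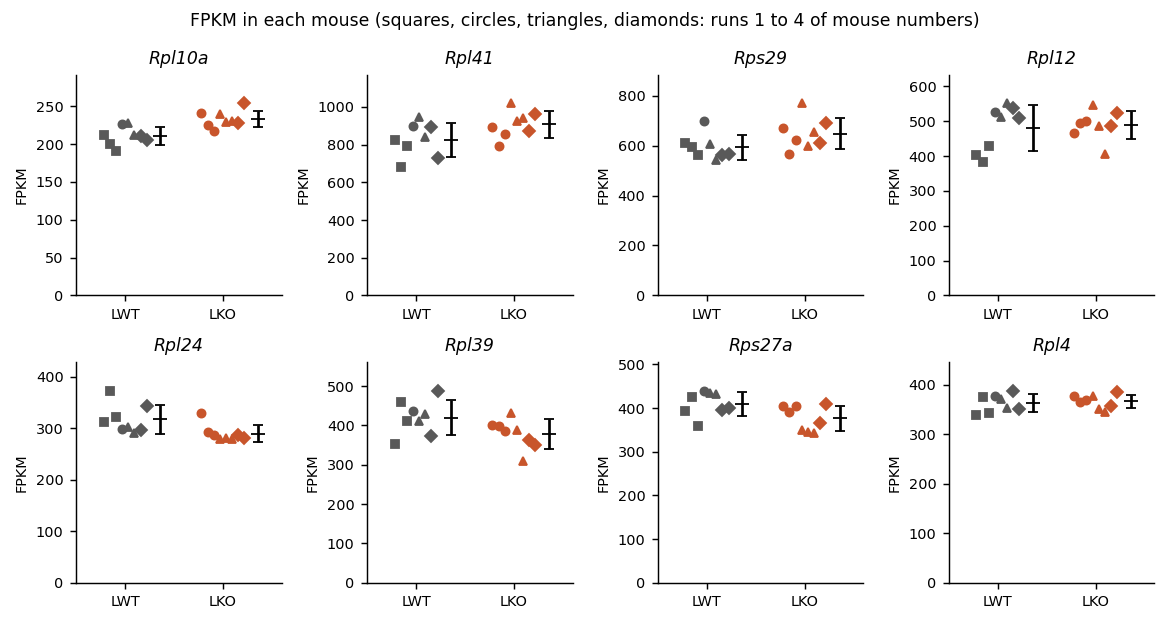
FPKM in each mouse for 8 ribosomal protein genes by genotype, with shapes for the run of mouse numbers and bars for the mean ± SD of 8 mice. The genotypes overlap in every panel, and in Rpl12 the 3 squares, from the first run, lie between 383.9 and 428.8 FPKM.

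In Rpl12, at the base of the stalk, the level was lower in the first run of mouse numbers than in the other Fgl1 LWT mice. It was at 403.5, 383.9 and 428.8 FPKM in the 3 mice of the first run, all Fgl1 LWT, and between 508.3 and 551.3 FPKM in the other 5. The Fgl1 LKO mice lay between 407.2 and 546.3 FPKM, and both of these extremes were mice of the third run. The log2 difference between genotypes was 0.029 ± 0.087 (SE, limma adjusted p = 0.949) with all mice and -0.11 both without the first run and with the run as a term in the fit. The part of the run in this difference cannot be told apart from the genotype in the first run, which holds no Fgl1 LKO mouse. The stalk proteins showed no difference beyond the spread. Rplp0 had a log2 difference of -0.0082 (95% interval -0.14 to 0.12), Rplp1 0.0080 (-0.11 to 0.13) and Rplp2 0.044 (-0.13 to 0.22). Rpsa, the small subunit protein also known as the laminin receptor, had -0.026 (-0.16 to 0.11).

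Mouse-to-mouse spread was small in these genes. The SD within genotypes of log2(FPKM + 1) had a median of 0.10 (0.056 to 0.18) over the 76 genes, 0.20 over the 616 other genes with means of 100 to 1100 FPKM, and 0.17 over all 12770 genes. All 76 genes lay below the median of the 616. The steadiest were Rpl19 (0.056), Rps9 (0.062) and Rpl4 (0.064), and the most variable Rps21 (0.18), Rpl12 (0.17) and Rpl37 (0.16). Rps21 ranged from 402.6 to 605.5 FPKM in Fgl1 LWT and from 439.4 to 573.9 FPKM in Fgl1 LKO mice, and Rpl37 from 126.2 to 168.3 and from 132.7 to 188.1 FPKM.

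Rpl4 is of practical interest because the study normalised its qPCR to it. This large subunit protein, whose extension reaches the exit tunnel, is encoded on chromosome 9 from 64080618 to 64086351 (GRCm39, plus strand), in a gene whose introns carry 5 of the 55 snoRNAs annotated within introns of 28 of the 76 genes. Its lowest, median and highest levels were 338.3, 362.1 and 387.8 FPKM in Fgl1 LWT and 345.6, 366.9 and 385.6 FPKM in Fgl1 LKO mice, which overlapped almost completely. The log2 difference was 0.017 ± 0.050 (SE, 95% interval -0.088 to 0.12), or -0.0020 with each library rescaled by the median ratio over genes, with a limma adjusted p of 0.949 and an exact permutation p of 0.598. Among 4241 genes whose mean reached 10 FPKM, 11 had a smaller SD within genotypes. Its coefficient of variation over the 16 mice was 4.31%, against 5.23% for Ppia, 13.3% for Gapdh and 40.6% for Actb, other genes often used as references. Actb ranged from 146.2 to 572.0 FPKM. All these values are from livers of fed mice on normal chow. The western diet, carbon tetrachloride, fasting and adipose tissue samples of the study's qPCR are not covered.

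**Figure D5:**
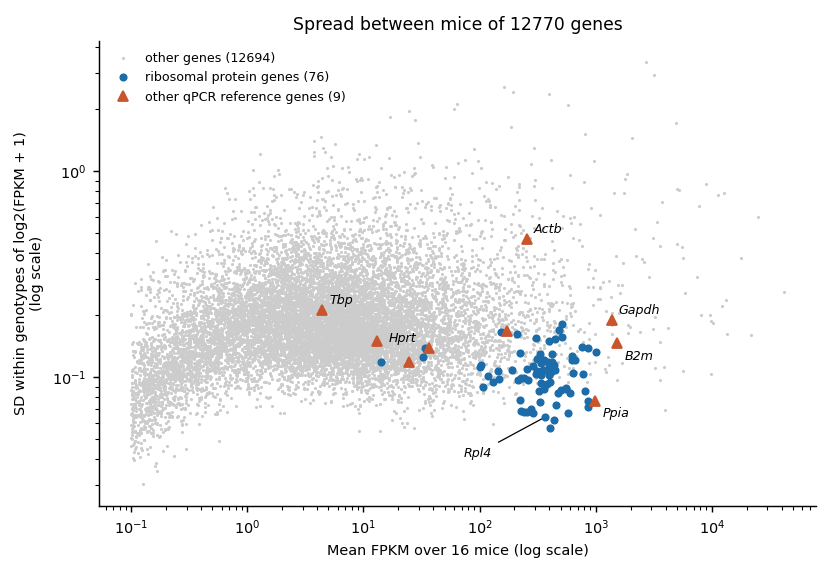
SD within genotypes of log2(FPKM + 1) against mean FPKM over 16 mice (both axes log) for 12770 genes, with the 76 ribosomal protein genes and 9 other common qPCR reference genes marked. The ribosomal protein genes form a low cluster, with Rpl4 at 0.064 and Actb at 0.47.

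The genes also varied together between mice. After subtraction of each genotype's mean, the median pairwise Pearson r over the 16 mice was 0.32 among the 76 genes, and 82.1% of pairs were above 0. It was 0.18 among 78 mitochondrial ribosomal protein genes, and 0.099 among the 616 other genes of 100 to 1100 FPKM. These correlations are descriptions, since all values of a mouse share 1 library and its scaling. With each library rescaled by the median ratio over genes, the values were 0.47, 0.13 and 0.077. Among the genes closest to the mean of the others were Rpl4 (r = 0.88) and Rps13 (0.84).

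The genes farthest from it were Rps27l (r = -0.21) and Rpl24 (-0.11), and next came Rpl35a (0.094). With median-ratio scaling Rps27l was at -0.19, while Rpl24 was at 0.17 and Rpl35a at 0.57. Among mRNAs known to carry the oligopyrimidine motif without encoding ribosomal proteins listed here, Rack1, a scaffold on the small subunit, had an r with the mean of the 76 of 0.80 (0.77 after scaling), the elongation factor subunits Eef1g 0.62 (0.82) and Eef1b2 0.60 (0.79), and Eif4b, a helicase cofactor, -0.40 (-0.58).

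The other genes of the pathway had no gene past the threshold either. In the list of other oligopyrimidine mRNAs (17 genes), 0 had an unadjusted limma p under 0.05, and the median log2 difference was -0.020. The 7 ribosomal proteins outside the rule had 0 and a median of -0.014, and 78 mitochondrial ribosomal proteins had 2 (Mrpl43 and Mrpl49, both lower in Fgl1 LKO) and a median of -0.022. Of 19 genes that control ribosomal protein synthesis, 1 did (Mlst8, an mTOR complex subunit, log2 difference 0.16, unadjusted p = 0.0136, adjusted p = 0.696), and the median was 0.077.

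Ribosome assembly factors and RNA polymerase I subunits formed another list. Of its 25 genes, 21 were higher in Fgl1 LKO, with a median log2 difference of 0.17, and 8 had an unadjusted limma p under 0.05, all higher, where the share over all genes was 7.01%. None passed the adjustment (smallest adjusted p = 0.696), and the exact permutation p was under 0.05 for 5. Of these 8, the 2 with the largest differences were Tsr1, of small subunit maturation (0.49, 95% interval 0.079 to 0.89), and Nop2, a ribosomal RNA methyltransferase (0.42, 0.10 to 0.75). Polr1a, the largest subunit of RNA polymerase I, had 0.36 (0.10 to 0.62) and Nob1, the endonuclease of the last small subunit cut, 0.27 (0.093 to 0.45). In Tsr1, Fgl1 LKO replicates 5, 7 and 8 were at 11.5, 11.2 and 14.3 FPKM. The other Fgl1 LKO mice (4.98 to 7.34) lay within the Fgl1 LWT range (3.26 to 7.78). In Nop2 these replicates were at 10.2, 10.8 and 12.95 FPKM, against 5.44 to 8.09 in the others and 4.44 to 8.84 in Fgl1 LWT. The same replicates were highest in Polr1a (6.56, 8 and 8.19 FPKM). Nob1 was at 5.94 to 7.76 FPKM in Fgl1 LKO and 4.35 to 7.36 in Fgl1 LWT. The median SD within genotypes of the 25 genes was 0.25, against 0.10 for the ribosomal proteins. Targets of p53 can be induced when free Rpl5 and Rpl11 bind Mdm2. Of 8 genes, Trp53 (which encodes p53) and targets of p53, 7 were higher, where the share over all genes was 55.8%. An unadjusted limma p under 0.05 was found for 2, Trp53 (0.31) and Cdkn1a (0.77), against 7.01% of all genes. Neither passed the adjustment (limma adjusted p = 0.696 in both). The exact permutation p was 0.0455 for Trp53 and 0.0674 for Cdkn1a. In Fgl1 LWT alone, Cdkn1a ranged from 4.24 to 29.3 FPKM. Rpl5 and Rpl11 had log2 differences of -0.036 (95% interval -0.16 to 0.087) and 0.091.

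The same comparison was made for markers of liver cell types. All 5 hepatocyte markers were lower in Fgl1 LKO (median log2 difference -0.15, 0 with an unadjusted limma p under 0.05), all 5 Kupffer cell markers were higher (0.25, 2 of 5) and all 5 cholangiocyte markers were higher (0.22, 0 of 5). The medians were 0.017 for sinusoidal endothelium, 0.050 for stellate cells, 0.023 for lymphocytes (4 of 6 measured, with Cd3e and Ms4a1 under the minimum), 0.18 for neutrophils (3 of 4, with Ngp under the minimum) and -0.092 for erythroid cells, with 0 genes under 0.05. The part of these cells in the values of the assembly factors was not tested.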

How the data were processed

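Liver polyA RNA of 8 Fgl1 LWT and 8 Fgl1 LKO mice was sequenced from stranded DNBSEQ libraries with paired 150-base reads. After filtering, the authors used HISAT against mm39 and Bowtie2 against reference genes (versions not given in the sources used here), and they deposited FPKM values, rounded to 2 decimals. The deposited table writes decimals with commas. FPKM are not counts, so no count test was used. 

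The scale was log2(FPKM + 1), and genes whose mean reached 0.1 FPKM entered a two-sided limma test with an intensity trend (limma 3.58.1, R 4.3.3), adjusted after Benjamini-Hochberg with a threshold of 0.05. Single genes were also compared by two-sided exact permutation tests on the difference of means (12870 splits, smallest p 0.000155). Other steps ran in Python 3.11.15 (pandas 2.3.3, scipy 1.17.1, numpy 2.4.6). On simulated data of 12770 genes with 200 changed, limma recovered 84% of changes of 0.5 on the log2 scale, and it made 0 calls without change. The simulated noise was normal and independent between genes, and the 200 changes were planted. The 84% is therefore no measure of the power on the deposited data. No samples were identical.

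Groups came from the labels. The members and lists were chosen with earlier results of these data known. The list of other qPCR reference genes was added after the design was fixed. Named were genes with an unadjusted p under 0.05, the 5 highest and 5 lowest levels, the 3 largest differences in each direction, the 3 largest and 3 smallest SDs, and a preset set (Rpl4, Rplp0, Rplp1, Rplp2, Rpsa, Rps27a and paralog pairs). Named genes of other lists had an unadjusted p under 0.05 or illustrate a level or correlation. Positions are from GRCm39 with GENCODE vM39, which 76 of 76 genes matched, and promoters from RefSeq GRCm38.p6, whose positions were not converted. Alternatives were other pseudocounts (0.1, 0.01), filters, scalings and weights, the mouse-number run as a term, replicate numbers as a block, and leaving out mice. Some genes of these lists are not reported here by name. Read numbers are not known, and counting error is therefore not given.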

Additional observations from a re-analysis of the deposited data

Results flagged for a closer look

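Within each genotype, the highest or lowest mouse was compared with its nearest neighbour for the 27 named genes, the summed level and the ratio of the subunits, 58 groups of 8 mice in all. In 4 groups the gap, as a share of the group's range, exceeded Dixon's 95% critical value, where chance gives about 1 in 20 groups, or 2.9 of 58. Rpl22 was at 43.3 FPKM in Fgl1 LWT replicate 2, with the next mouse of its group at 36.1 FPKM. Rpl24 was at 329.2 FPKM in Fgl1 LKO replicate 1, with the next at 293.3 FPKM. Rps29 was at 698.0 FPKM in Fgl1 LWT replicate 4, the mouse of highest summed level, with the next at 609.4 FPKM. Rps4x was at 282.6 FPKM in Fgl1 LKO replicate 6, the lowest of its group, with the next at 324.5 FPKM.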

How the results depend on the processing

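No ribosomal protein gene passed the adjusted threshold under any of the 29 alternatives, in which 1 to 7 had an unadjusted p under 0.05 (smallest adjusted p 0.478). The exact rank-sum test is counted among them, although a call after adjustment was hardly possible in it. The median log2 difference lay between -0.039 and 0.016 over 28 alternatives and the difference in summed FPKM (Fgl1 LKO minus Fgl1 LWT) between -616 and 396 over 19, each moving by less than the spread between mice. The same-numbered mice deviated together (r over 0.1) in 3 of 8 pairs. Their mean r was 0.073 (-0.16 to 0.45), against -0.0098 for mice of different numbers. Such a count cannot settle whether the numbers pair the mice, and the main fit used no pairing. With the replicate block, 0 of 76 genes passed as well. The log2 difference of Rpl10a lay between 0.11 and 0.16 and that of Rpl24 between -0.16 and -0.081 over 28 alternatives. Of the 27 named genes, 18 kept their direction throughout. Those that reversed had differences between -0.024 (Rpl22) and 0.044 (Rplp2) in the main fit, and Rpl12 moved the farthest. With the run as a term, Rpl12 was at -0.11, Rpl3 at -0.019, Rpl4 at -0.010, Rplp1 at -0.037 and Rplp2 at -0.028. Without the first run, Rpl12 was at -0.11, Rpl22 at 0.012, Rpl4 at -0.0077, Rplp1 at -0.031 and Rplp2 at -0.0012. With median-ratio scaling, Rpl4 was at -0.0020 and Rplp1 at -0.011, with equal summed FPKM Rplp0 at 0.00064, and with array weights Rpl22 at 0.023. With single mice left out, the ranges were -0.016 to 0.066 for Rpl12, -0.051 to 0.023 for Rpl22, -0.038 to 0.020 for Rplp0, -0.013 to 0.021 for Rplp1, -0.0070 to 0.064 for Rps20 and -0.069 to 0.015 for Rps21. The causes were not tested. Reads per library are unknown. With 8 mice per group, the 95% limma intervals had a median half-width of 0.13. At that width, a smaller difference leaves an interval that holds 0. The exact permutation test, which uses each gene's own spread, gave an unadjusted p under 0.05 for some smaller differences, such as Rpl19 (-0.067, p = 0.0361).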
